A study of Mus musculus with 24 samples.

Results

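The genes described here encode 9 proteins of the myelin sheath: Mbp, Mobp, Mal, Cldn11, Pllp, Mag, Mog, Cnp and Opalin. They were chosen by name, from the known place of their proteins in the sheath, with earlier results of these data known. Shares over all genes are therefore set beside the members as a description, not as a test of the set. The members were found by symbol among the 55359 rows of the count table, so 9 of 55359 rows are described. Each was measured by 3′ tag sequencing, which counts reads from near the end of each transcript, in oligodendrocytes cultured from C57Bl6J mouse pups. All 24 wells came from cortex of pups aged 5 to 7 postnatal days, sorted with magnetic beads for O4, a surface marker of immature oligodendrocytes, and all had 3 days of differentiation, driven mainly by the thyroid hormone T3, before exposure. Experiment 1 compared 6 wells kept for 3 days with 30 mM ethanol with 6 wells kept without ethanol (0 mM), and experiment 2 compared 6 wells with 10 mM ethanol with 6 further wells without it. The labels give no genotype, transgene or sex, and although wells are numbered as biological replicates, nothing says that they came from separate animals, so p-values measure the spread between wells. Control cultures stood in another incubator, and each dose was used in 1 experiment. Effects of ethanol cannot be told apart from those of the incubator, nor those of dose from those of the experiment. The question the design poses for these genes is whether ethanol changes their transcripts in cells that have begun to mature, and whether the doses differ.

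Myelin is a spiral of oligodendrocyte membrane around an axon, and most of it is compacted: basic proteins such as Mbp and Mobp hold the cytoplasmic faces together, while the small membrane proteins Mal, Cldn11 and Pllp serve the sorting, sealing and lipid order of the membrane. Other sheath proteins stay outside compact myelin: Mag lies on the membrane facing the axon, Mog on the outermost surface, Cnp in the cytoplasmic channels, and Opalin in the loops beside the node. The transcripts of this set rise as oligodendrocytes mature, though not all at the same stage, when regulators such as Sox10 and Myrf are active. They are widely used to judge how far an oligodendrocyte has matured.

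Promoter sequence is shown for 4 of the 5 members in which a motif of these regulators was found. Whether the motifs have a part in the members' levels was not tested. Of the 9 members, 8 matched a RefSeq table of promoters (build GRCm38.p6), with 10 start sites. Mbp did not match, so its promoter was not searched. For the others, 200 bases were taken from 250 to 51 bases before each start. Capitals mark matches on either strand to 3 motifs: CTGGCAC and its variant CTGGTAC, letters known for Myrf, and ACAAAG, a core known for the Sox family. The Mobp window is chr9:120149492-120149691 on the plus strand, that of Mag is chr7:30914914-30915113 on the minus strand (the first of its listed starts), that of Cnp is chr11:100574689-100574888 on the plus strand, and that of Mog is chr17:37023449-37023648 on the minus strand. All are written 5′ to 3′ on the strand of the gene.
Mobp: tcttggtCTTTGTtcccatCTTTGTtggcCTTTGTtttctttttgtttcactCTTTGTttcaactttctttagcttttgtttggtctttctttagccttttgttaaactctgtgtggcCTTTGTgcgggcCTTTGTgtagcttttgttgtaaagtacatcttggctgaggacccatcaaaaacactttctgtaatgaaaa
Mag: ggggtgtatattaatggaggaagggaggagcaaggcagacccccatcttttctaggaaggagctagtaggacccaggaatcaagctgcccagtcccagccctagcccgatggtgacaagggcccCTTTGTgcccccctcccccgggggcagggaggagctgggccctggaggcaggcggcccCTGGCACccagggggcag
Cnp: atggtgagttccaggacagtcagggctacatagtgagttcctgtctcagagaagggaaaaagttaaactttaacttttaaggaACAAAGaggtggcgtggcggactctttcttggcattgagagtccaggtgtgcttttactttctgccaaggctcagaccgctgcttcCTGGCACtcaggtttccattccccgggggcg
Mog: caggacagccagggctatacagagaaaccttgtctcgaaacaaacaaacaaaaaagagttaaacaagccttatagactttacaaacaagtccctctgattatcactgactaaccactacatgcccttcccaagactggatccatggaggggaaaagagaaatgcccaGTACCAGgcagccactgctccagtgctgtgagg
The Mobp window held 6 copies of ACAAAG, all as CTTTGT, and it was the only 1 of 32851 windows of this length with that many (0.00304%). At least 1 copy of ACAAAG was found in 5 of the members' 10 windows, against 13.6% of all windows. These were windows of Mobp, Mag, Cnp and Opalin, and some windows of Mag overlap each other. CTGGCAC was found in 2 of the 10 windows, those shown for Mag and Cnp (3.35% of all windows), and not at the other listed starts of Mag. CTGGTAC was found in 1 of the 10, that of Mog, on its other strand (1.54%). The Sox core ACAATG, present in 8.94% of windows, and the E-box CAGCTG, in 10.3%, were in none of the windows of the 8 matched members. These are matches of letters in 1 short window and no measure of binding.

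Wells held between 1184609 and 1817028 counts each. Levels are given as CPM, counts relative to a library size scaled by TMM, a normalization across wells. On this scale 3 counts were 1.71 to 2.56 CPM, a floor that covers counting error only. All 9 members, with Myrf and Sox10, were detected in every well. The members all passed the low-count filter in every comparison, and the lowest count of any member in any well was 17, for Opalin at 30 mM. Counts of 3′ tags do not scale with transcript length, which removes that difference between members. Other differences between genes in how they are counted were not examined, so levels of different members are set side by side only as measured. In the culture the oligodendrocyte genes stood beside transcripts of other cells: summed astrocyte markers (8 genes) lay between 3808 and 6667 CPM over all wells, with 0 of the 8 absent, and microglial markers (8 genes, none absent) lay between 118 and 216 CPM in experiment 1 and between 1251 and 1830.0 CPM in experiment 2. In such bulk samples, fewer cells of a type and less RNA per cell cannot be told apart.

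Mbp was the most abundant member in each group, at 2602 ± 146 CPM (SD, n = 6) in the controls of experiment 1 and 2494 ± 284 CPM (SD, n = 6) in those of experiment 2. Ordered by mean level, Cnp, Cldn11, Mobp, Mag, Mal, Mog, Pllp and Opalin followed, the last at 22.3 ± 4.68 CPM (SD, n = 6) in the controls of experiment 1, and this order was the same in all 4 groups. Neighbours in the order did not overlap between wells of the controls of experiment 1, except Cldn11 (705 ± 63.5 CPM) and Mobp (602 ± 42.3 CPM), which overlapped in all 4 groups. In the controls of experiment 2, Cnp (828 ± 55.7 CPM) and Cldn11 (692 ± 54.9 CPM) also overlapped. Together the 9 genes took 0.563% ± 0.0366 (SD, n = 6) of the counts in the controls of experiment 1 and 0.773% ± 0.197 (SD, n = 6) at 30 mM. In experiment 2 they took 0.553% ± 0.0515 (SD, n = 6) in controls and 0.622% ± 0.00599 (SD, n = 6) at 10 mM. Mbp alone made up 46.3% of the members' counts in the controls of experiment 1, 45.7% at 30 mM, 45.0% in the controls of experiment 2 and 42.3% at 10 mM.

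A single well stood apart for the whole set. In replicate 1 at 30 mM each of the 9 members was higher than in every other well of that group, which was so for 21.7% of 12734 genes with a mean of at least 8 CPM. The members took 1.17% of its counts, against 0.693% ± 0.0147 (SD, n = 5) in the other wells at 30 mM. Its level divided by the mean of the other 5 wells was between 1.53 for Cnp and 2.33 for Pllp, with 1.65 for Mbp, 1.90 for Mobp, 1.94 for Mal, 1.58 for Cldn11, 1.81 for Mag and 1.95 for Mog and for Opalin. Over all 12734 genes the median of this ratio was 1.00, and 2.50% of genes reached 1.53. In the same well, markers of Schwann cells, the myelin-forming cells of peripheral nerve (5 genes, none absent), summed to 143 CPM against 51.6 to 100.0 CPM in the other 5 wells, and astrocyte markers summed to 5253 CPM against 5508 to 6667. Whether these markers have a part in the members' levels was not tested. Fold changes, counts of calls and list medians at 30 mM are therefore given with and without this well.

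**Figure D1:**
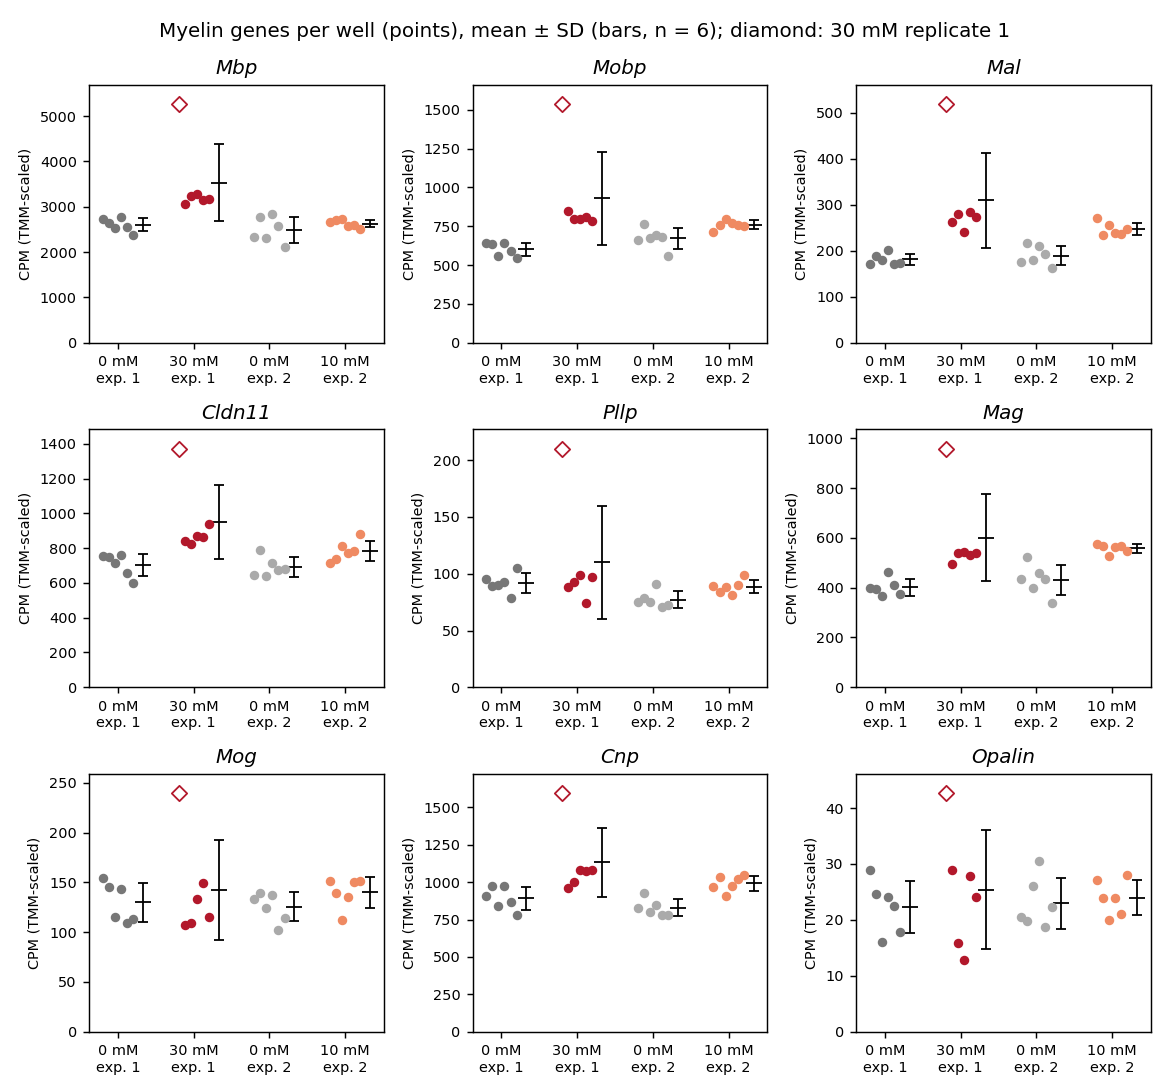
Level of each of the 9 myelin genes in CPM (vertical axis, linear, from 0) in the 4 groups (horizontal axis); points are wells and bars show mean ± SD (n = 6). The open diamond, replicate 1 at 30 mM, is the highest well of its group in all 9 panels. The other 30 mM wells lie above all controls of experiment 1 for Mbp, Mobp, Mal, Cldn11 and Mag.

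At 30 mM ethanol, transcripts of the compact-myelin proteins Mbp, Mobp, Mal and Cldn11 were higher than in the control wells, and so were those of Mag and Cnp. Of the 9 members, 6 rose, 0 fell and 3 (Pllp, Mog and Opalin) did not pass the test, where a gene was called at an edgeR quasi-likelihood adjusted p under 0.05 over all genes. The same rule called 9.67% of the 13235 genes tested in either direction with 3.02% higher and 6.65% lower. Upper quartile scaling gave a different balance over all genes (551 higher and 697 lower, against 400 and 880) and the same 6 members. The median log2 fold change was 0.43 over the members and 0.023 over all genes tested. By place in the sheath, 4 of 5 compact-myelin genes and 2 of 3 of Mag, Mog and Cnp passed.

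Mbp, whose protein binds the inner faces of the membrane together (ENSMUSG00000041607), had a lowest, median and highest level of 2379, 2602 and 2783 CPM in controls and 3064, 3209 and 5265 CPM at 30 mM. All 6 ethanol wells lay above all 6 control wells. The increase was 1.36-fold, a log2 fold change of 0.44 (SE 0.0808, edgeR quasi-likelihood adjusted p = 0.000156). Mobp (ENSMUSG00000032517), another basic protein of the cytoplasmic faces, read 548, 612 and 641 CPM in controls and 786, 805 and 1536 CPM at 30 mM. Again no ethanol well overlapped the controls. Its log2 fold change was 0.63 (SE 0.0986, edgeR quasi-likelihood adjusted p = 1.25e-05).

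The largest change among the members was that of Mal (ENSMUSG00000027375), a tetraspan protein of lipid rafts that takes part in membrane sorting. Its wells were at 171, 178 and 202 CPM (lowest, median, highest) in controls and at 239.9, 277 and 519 CPM with 30 mM ethanol. The groups were separate, and the change was 1.72-fold, a log2 fold change of 0.78 (SE 0.110, edgeR quasi-likelihood adjusted p = 1.55e-06). Cldn11 (ENSMUSG00000037625), the claudin of the tight junctions that run through myelin, went from 599.5, 729.6 and 758 CPM to 821, 867 and 1373 CPM. It too was separate between the groups, with a log2 fold change of 0.43 (SE 0.0816, edgeR quasi-likelihood adjusted p = 0.000223). Pllp (ENSMUSG00000031775), or plasmolipin, a small raft protein of the same membrane, read 78.8, 91.2 and 105 CPM in controls and 74.2, 94.9 and 210.3 CPM at 30 mM. All ethanol wells but replicate 1 lay within or under the range of the controls. Its log2 fold change of 0.29 (SE 0.143, 95% interval 0.014 to 0.57) did not pass (edgeR quasi-likelihood adjusted p = 0.202).

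Mag (ENSMUSG00000036634), the adhesion protein that faces the axon, read 368, 398 and 462 CPM in controls and 497, 539.97 and 959 CPM at 30 mM. No ethanol well fell within the control range, and the log2 fold change was 0.59 (SE 0.0959, edgeR quasi-likelihood adjusted p = 2.63e-05). Cnp (ENSMUSG00000006782), the phosphodiesterase that keeps cytoplasmic channels open, had a lowest, median and highest level of 782, 886 and 975 CPM in controls and 960.1, 1078 and 1595 CPM with ethanol. Here 5 of 6 ethanol wells lay above every control well. The log2 fold change was 0.35 (SE 0.0783, edgeR quasi-likelihood adjusted p = 0.00206), and the call was lost with DESeq2 (adjusted p = 0.0508). Mog (ENSMUSG00000076439), an immunoglobulin-like protein of the outer surface, read 109, 129 and 154 CPM in controls and 107, 124 and 239.8 CPM at 30 mM. Apart from replicate 1 its ethanol wells lay near or within the control range, and its log2 fold change of 0.15 (SE 0.124, 95% interval -0.098 to 0.39) did not pass (edgeR quasi-likelihood adjusted p = 0.508). Opalin (ENSMUSG00000050121), a membrane glycoprotein of the paranodal loops, read 16.1, 23.3 and 28.9 CPM in controls and 12.9, 25.98 and 42.7 CPM with ethanol. Its wells were mixed between the groups, and the log2 fold change of 0.21 (SE 0.196, 95% interval -0.17 to 0.60) did not pass (edgeR quasi-likelihood adjusted p = 0.544).

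Across the members, 5 of 9 (Mbp, Mobp, Mal, Cldn11 and Mag) had every 30 mM well above every control well of experiment 1, against 1.17% of the genes tested. Without replicate 1 the same 5 were separate, against 1.78% of genes, and the same 6 passed the test, against 4.11% called higher. The changes were smaller without it. The log2 fold change of Mal was 0.56 (edgeR quasi-likelihood adjusted p = 1.33e-08), that of Mobp 0.43 (adjusted p = 1.27e-07) and that of Mag 0.40 (adjusted p = 2.81e-06). For Mbp it was 0.29 (edgeR quasi-likelihood adjusted p = 6.71e-05), for Cldn11 0.30 (adjusted p = 0.000287) and for Cnp 0.23 (adjusted p = 0.00697). Pllp (-0.018), Mog (-0.084) and Opalin (-0.020) had negative estimates without it and did not pass. The median over the members was then 0.29, against 0.022 over all genes.

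Markers of other cells also moved at 30 mM. Of 8 astrocyte markers, 5 rose, and their sum was 3808 to 4736 CPM in controls and 5253 to 6667 CPM with ethanol. Of 5 fibroblast markers, 4 fell (363 to 599 CPM in controls, 213 to 275 CPM with ethanol), as did 2 of 7 tested markers of endothelial and mural cells (439.7 to 579 CPM in controls, 156 to 307 CPM with ethanol, with Cldn5 at 0 in all wells of both groups). Markers of oligodendrocyte precursors (6 genes, none called by edgeR and 0 at an unadjusted p under 0.05) summed to 574 to 638 CPM in controls and 497 to 632 CPM with ethanol. Among microglial markers 1 of 4 tested rose (118 to 204 CPM against 129.8 to 216 CPM), among neuronal markers 1 of 4 tested fell (109.9 to 149 CPM against 105 to 144 CPM), and of Schwann cell markers 0 of 3 tested passed, with 1 at an unadjusted p under 0.05 (74.6 to 118 CPM against 51.6 to 143 CPM). Without replicate 1 the counts called in each of these 7 lists were the same in both directions, and 1 precursor marker then had an unadjusted p under 0.05. None of these lists was at 0 as a whole, and their part in the members' changes was not tested.

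**Figure D2:**
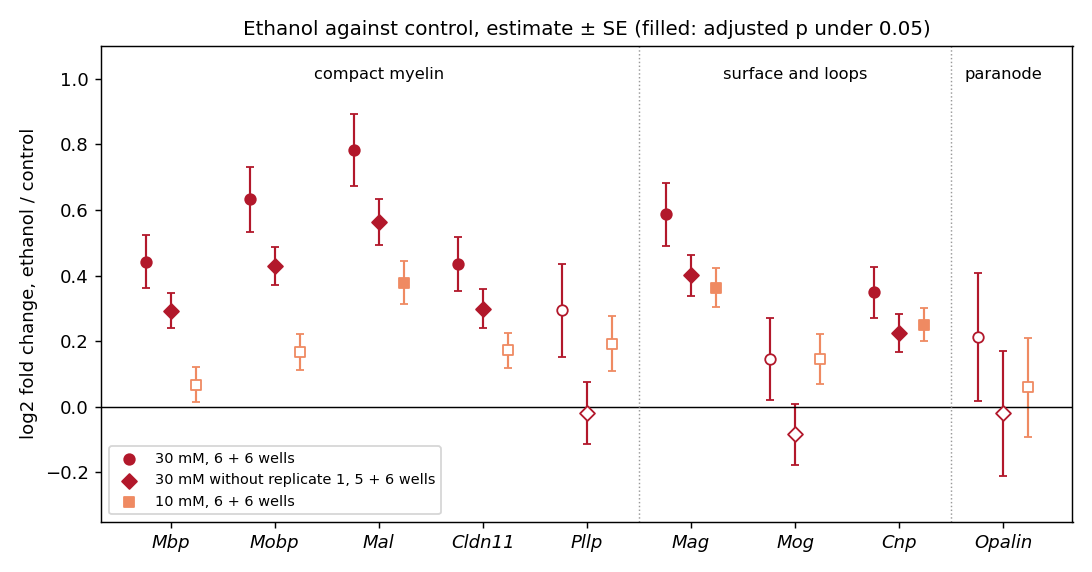
Log2 fold change of each myelin gene against its controls (vertical axis) for 30 mM, 30 mM without replicate 1 and 10 mM; error bars are ± SE and filled symbols passed at an adjusted p under 0.05. The 6 genes filled at 30 mM stay filled without replicate 1, and at 10 mM Mal, Mag and Cnp are filled.

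At 10 mM ethanol, Mal, Mag and Cnp rose and the other 6 members did not pass the test. So 3 of 9 members were called higher, against 0.391% of the 13538 genes tested, and 0 were called lower, against 0.266% (0.657% in either direction). The median log2 fold change was 0.17 over the members and -0.0023 over all genes. Here 1 of 5 compact-myelin genes and 2 of 3 of Mag, Mog and Cnp passed.

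Mal read 163, 186 and 216 CPM (lowest, median, highest) in the controls of experiment 2 and 234, 244 and 270.3 CPM at 10 mM. Every ethanol well was above every control well, and the log2 fold change was 0.38 (SE 0.0649, edgeR quasi-likelihood adjusted p = 0.000185). Mag went from 339.9, 436 and 522 CPM to 527, 566 and 574 CPM. Its groups were also separate, by a margin of a few CPM between the highest control and the lowest ethanol well, with a log2 fold change of 0.36 (SE 0.0594, edgeR quasi-likelihood adjusted p = 8.45e-05). Cnp read 777, 817 and 927 CPM in controls and 909, 997 and 1046 CPM at 10 mM, and 5 of 6 ethanol wells lay above every control. Its log2 fold change was 0.25 (SE 0.0513, edgeR quasi-likelihood adjusted p = 0.0038). In a joint fit of all 24 wells, Mag passed (edgeR quasi-likelihood adjusted p = 0.0442) and the calls of Mal (adjusted p = 0.0784) and Cnp (adjusted p = 0.136) were lost.

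Mbp, which rose at 30 mM, read 2121, 2457 and 2847 CPM in the controls of experiment 2 and 2513, 2631 and 2728 CPM at 10 mM. All ethanol wells lay inside the range of the controls, and the log2 fold change of 0.068 (SE 0.0531, 95% interval -0.036 to 0.17) did not pass (edgeR quasi-likelihood adjusted p = 0.721). Mobp (556, 679 and 767 CPM against 713, 760.4 and 799.8 CPM) had a log2 fold change of 0.17 (edgeR quasi-likelihood adjusted p = 0.167). Cldn11 (642, 677 and 791 CPM against 714, 777 and 882 CPM) also had 0.17 (edgeR quasi-likelihood adjusted p = 0.141), and passed when replicate 2 of the controls of experiment 2 was left out. For both genes the groups overlapped, with the ethanol wells in the upper part of the joint range. Pllp had 0.19 (adjusted p = 0.408), Mog 0.15 (adjusted p = 0.525) and Opalin 0.060 (adjusted p = 0.942, all edgeR quasi-likelihood), with overlapping wells. Separation of all wells was seen for 2 of 9 members, Mal and Mag, against 0.436% of genes tested. The spread was narrower than in controls for some members. The SD between ethanol wells was 81.5 CPM for Mbp, against 284 CPM in its controls, and 17.4 CPM for Mag, against 60.8 CPM. It was slightly wider for Cldn11 (59.7 CPM against 54.9 CPM) and Mog (15.1 CPM against 14.6 CPM).

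Of the markers of other cells at 10 mM, 0 of 8 astrocyte markers passed by edgeR, with 1 at an unadjusted p under 0.05 (4343 to 4676 CPM in controls, 4303 to 5042 CPM with ethanol), 2 of 5 fibroblast markers fell (503 to 688 CPM against 509 to 563 CPM), 1 of 6 tested microglial markers rose (1251 to 1579.6 CPM against 1367 to 1830.0 CPM) and 1 of 5 tested neuronal markers fell (149 to 192 CPM against 128 to 163 CPM). Precursor markers (0 of 6 called, 654 to 723 CPM against 591 to 751 CPM), endothelial and mural markers (0 of 6 tested, 95.7 to 139.9 CPM against 85.2 to 124 CPM) and Schwann cell markers (0 of 1 tested, 15.2 to 23.9 CPM against 14.0 to 24.1 CPM, Pmp2 at 0) gave no call, and 1, 1 and 0 of them had an unadjusted p under 0.05. Their part in the rise of Mal, Mag and Cnp was not tested.

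Only Mobp and Mbp were called for a difference in ethanol effect between the experiments, and neither call held in every fit. For Mobp the log2 fold change at 30 mM exceeded that at 10 mM by 0.46 (SE 0.122, edgeR quasi-likelihood interaction over 24 wells, adjusted p = 0.0201), and for Mbp by 0.36 (SE 0.106, adjusted p = 0.0363). So 2 of 9 members were called for the difference, both higher, against 0.880% of 14655 genes (2.40% were called lower and 3.28% in either direction). With upper quartile scaling 3 members were called (Mal too), and over all genes 222 were higher and 203 lower, against 129 and 352 with TMM. The differences of Mal, 0.39 (edgeR quasi-likelihood adjusted p = 0.0949), Cldn11, 0.25 (adjusted p = 0.187), and Mag, 0.21 (adjusted p = 0.371), did not pass. Those of Pllp (0.094), Mog (-0.011), Cnp (0.088) and Opalin (0.15) did not pass either, and the sign for Mog turned with upper quartile scaling (0.062) and with library size alone (0.014). Neither call held without replicate 1 at 30 mM, where the difference was 0.23 for Mobp (edgeR quasi-likelihood adjusted p = 0.0981) and 0.19 for Mbp (adjusted p = 0.159) and 0 of 9 members passed, against 1.45% of genes called higher and 3.65% lower (3 of 9 had an unadjusted p under 0.05, 2 of them higher). Both calls were also lost without replicate 3 of the controls of experiment 1, without replicate 2 of the controls of experiment 2, and with DESeq2 (adjusted p = 0.154 for Mobp and 0.169 for Mbp). With 1 of the 24 wells left out in turn, Mobp passed in 21 of 24 fits and Mbp in 7 of 24. The difference between doses is also a difference between experiments.

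To set compact myelin against the other sheath proteins within each well, the mean log2 CPM of Mag, Mog and Cnp was subtracted from that of Mbp, Mobp, Mal, Cldn11 and Pllp. This is a description without a test. At 30 mM the value was 0.47 ± 0.10 (SD, n = 6) against 0.33 ± 0.071 (SD, n = 6) in controls, a shift of 0.14, as the compact genes were higher by 0.46 on average and the others by 0.32. The wells ranged from 0.30 to 0.57 with ethanol and from 0.26 to 0.41 in controls, so that 4 of 6 ethanol wells lay above every control. Replicate 1, at 0.54, was within the range of its group, and without it the shift was 0.13, from 0.31 against 0.18. At 10 mM the value was 0.26 ± 0.11 (SD, n = 6) against 0.32 ± 0.076 (SD, n = 6), a shift of -0.061, with the compact genes higher by 0.21 and the others by 0.27. All but 1 of the ethanol wells there lay between 0.19 and 0.25, inside or just under the range of the controls (0.21 to 0.43), and replicate 3 was at 0.48. Without replicate 3 the 10 mM wells had 0.22 ± 0.027 (SD, n = 5), and the shift was -0.10. The shift at 30 mM exceeded the SD between wells of either group, with and without replicate 1. The mean of the 3 subtracted genes was held down by Mog, higher by 0.083, against 0.54 for Mag and 0.33 for Cnp. Without replicate 1 these values were -0.078, 0.40 and 0.23, beside 0.31 for the compact genes. Among the compact genes Pllp was lowest (0.17, and -0.029 without replicate 1). The shift was not computed without Mog, so it is not shown for Mag and Cnp alone. The shift at 10 mM was within the SD of both groups with replicate 3 and beyond the SD of both without it. Replicate 3 was the extreme well on this same value, so leaving it out narrows the SD by itself. No reading is drawn from the comparison without it. Within each group the estimates were uneven: at 30 mM Mal and Pllp, both compact, had log2 fold changes of 0.78 and 0.29, and Mag and Mog had 0.59 and 0.15, differences between genes that were not tested.

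**Figure D3:**
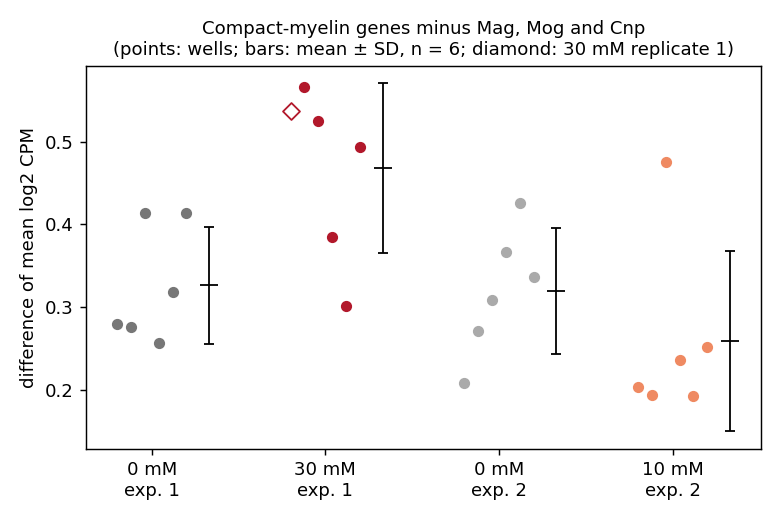
Mean log2 CPM of the compact-myelin genes minus that of Mag, Mog and Cnp in each well (vertical axis, log2 units, not from 0) for the 4 groups; points are wells, the open diamond is replicate 1 at 30 mM and bars show mean ± SD (n = 6). The means are 0.33 and 0.47 in experiment 1 and 0.32 and 0.26 in experiment 2, with overlapping wells in both.

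The members also varied together between wells of the same group. After each group's mean was subtracted, all 36 pairs of members had a positive correlation of log2 CPM over the 24 wells (Pearson r from 0.45 to 0.94, median 0.78). Without replicate 1 at 30 mM the values were lower: over the other 23 wells r ranged from -0.097 to 0.80, with a median of 0.37 and 35 of 36 pairs above 0. The highest value was then that of Mbp with Mag, and the lowest that of Pllp with Opalin, the members with the fewest counts. These values are a description, since the wells of an experiment share a batch and all genes of a well share its depth. Correlations were not computed for pairs over all genes, so the values are not shown to be particular to the members.

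**Figure D4:**
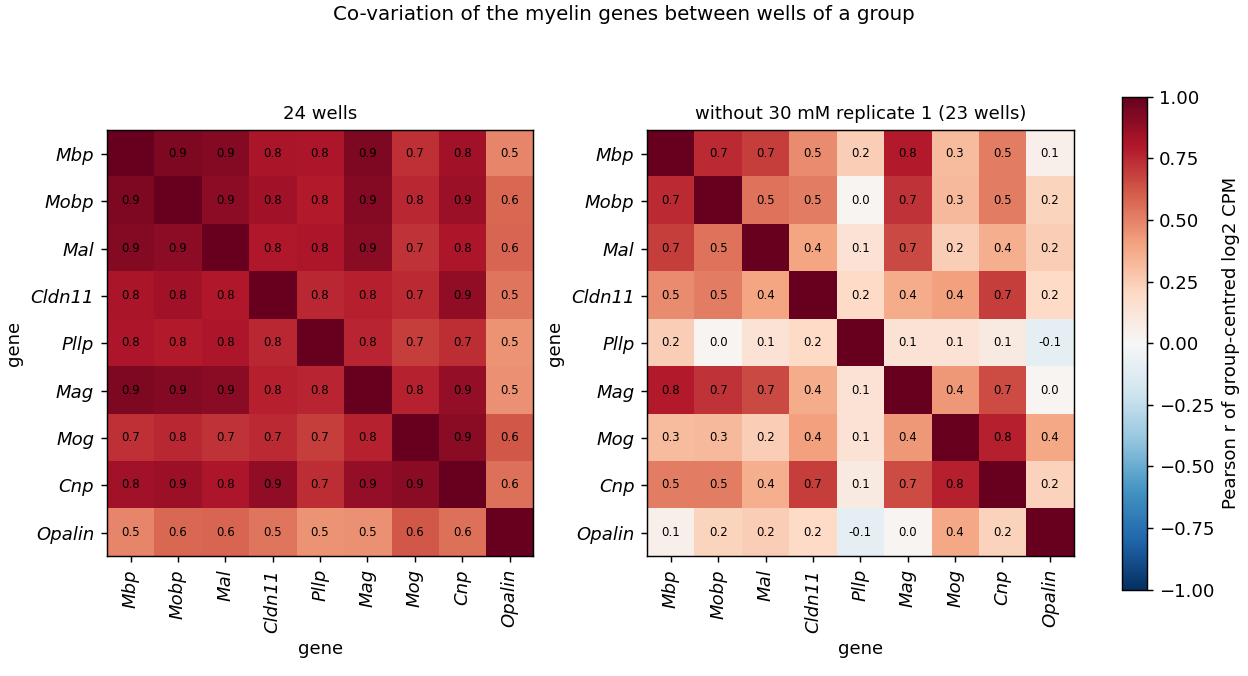
Pearson r of group-centred log2 CPM for each pair of myelin genes (both axes: genes; colour from -1 to 1) over 24 wells (left) and without replicate 1 at 30 mM (right, 23 wells). The median of the 36 pairs is 0.78 on the left and 0.37 on the right.

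Of 13491 genes with a symbol and a mean log2 CPM of at least 3, those whose group-centred levels followed the mean of the members best over 24 wells were Gsn (r = 0.92), which encodes the actin-severing protein gelsolin, Tubb4a (0.90), a beta-tubulin, Slc44a1 (0.89), a choline transporter, Hsd17b7 (0.89), an enzyme of cholesterol synthesis, and Sirt2 (0.87), a deacetylase abundant in myelin. Nap1l5 (0.87), Qdpr (0.87), Taldo1 (0.87), Stmn4 (0.86) and Tmem125 (0.86) followed. Gsn, Sirt2, Qdpr and Tmem125 are also in the list of mature oligodendrocyte genes. Without replicate 1 at 30 mM, Gsn (0.82), Nap1l5 (0.77), Sirt2 (0.74), Hsd17b7 (0.74) and Taldo1 (0.69) remained among the 10 best, and Tubb4a, Slc44a1, Qdpr, Stmn4 and Tmem125 did not. By log2 fold change, of the 10 genes, Tubb4a (0.31), Slc44a1 (0.42) and Stmn4 (0.42) rose at 30 mM, and Stmn4 (0.41, edgeR quasi-likelihood adjusted p = 0.0198) rose at 10 mM. Without replicate 1 the call at 30 mM held for Slc44a1 (0.30) and was lost for Tubb4a (0.17, edgeR quasi-likelihood adjusted p = 0.0770) and Stmn4 (0.20, adjusted p = 0.197).

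Between the control groups few members differed. The median log2 difference (experiment 1 minus experiment 2) was 0.012 over the members and -0.0084 over all genes, and 2 of 9 members passed, 1 higher and 1 lower, against 43.6% of the 13479 genes tested (21.3% higher and 22.3% lower). Pllp was higher in experiment 1 by 0.23 (edgeR quasi-likelihood adjusted p = 0.0233), at 91.9 ± 8.78 CPM against 77.2 ± 7.30 CPM (SD, n = 6 each). Mobp was lower, with -0.18 (edgeR quasi-likelihood adjusted p = 0.00939), at 602 ± 42.3 CPM against 673 ± 68.1 CPM (SD, n = 6 each). In both cases the wells overlapped. With upper quartile scaling and with library size alone the 2 members called were both lower, Mobp and Mag, and the call of Pllp was lost (0.17, edgeR quasi-likelihood adjusted p = 0.09998, and 0.18, adjusted p = 0.0882), as it was with DESeq2 (0.23, adjusted p = 0.0526). The estimates for Mbp (0.045), Cldn11 (0.012) and Mog (0.038) did not pass and changed sign with upper quartile scaling and with library size alone. In the same comparison all 6 tested microglial markers were lower in experiment 1.

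Other genes of the sheath and its regulation were taken from lists, and at 30 mM 12 of their 63 tested genes rose and 6 fell, where 3.02% of all genes tested were called higher and 6.65% lower. Without replicate 1 at 30 mM, 9 rose and 6 fell (4.11% and 7.42% of all genes), and the median over the 63 went from 0.14 to 0.050. In the list of mature oligodendrocyte genes, 8 of 23 tested rose and 0 fell (median 0.22, against 0.023 over all genes). They include Cmtm5 (log2 fold change 0.54), Adamts4, a protease of proteoglycans (0.53), Tmem88b (0.53) and Tppp, which promotes the assembly of microtubules in myelinating cells (0.59). Without replicate 1, 5 of 23 rose and the median was 0.14. These 4 still passed, at 0.48 for Cmtm5, 0.35 for Adamts4, 0.34 for Tmem88b and 0.32 for Tppp. Among junction and adhesion genes, 3 of 14 tested rose and 2 fell (median 0.16): Nfasc, whose glial form anchors the paranodal loops (0.49), the tetraspanin Tspan2 (0.65) and, named after its value was seen, the receptor Gpr37 (0.71) were higher, and the tetraspanin Cd9 (-0.22) and the adhesion molecule Cadm4 (-0.27) were lower. Without replicate 1 the counts were 2 and 2, and the median was -0.018. The call of Gpr37 was lost (0.43, edgeR quasi-likelihood adjusted p = 0.184), and Nfasc (0.42), Tspan2 (0.40), Cd9 (-0.26) and Cadm4 (-0.35) passed.

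Myelin lipid synthesis genes gave no call at 30 mM by edgeR (0 of 8, of which 3 had an unadjusted p under 0.05, median 0.11), among them Ugt8a, the enzyme that makes galactosylceramide, at 0.30 (edgeR quasi-likelihood adjusted p = 0.0855), 111 ± 14.7 CPM in controls and 135 ± 41.1 CPM with ethanol (SD, n = 6 each). Without replicate 1 Ugt8a was at 0.11 (edgeR quasi-likelihood adjusted p = 0.469), the sign of the list's median turned (-0.057), and 0 of 8 passed by edgeR, with 2 at an unadjusted p under 0.05, both lower. Of 10 regulators, 1 rose and 2 fell, and without replicate 1, 2 rose and 2 fell (median 0.054 with it and -0.029 without). The second that rose was Tcf7l2, a factor of the Wnt pathway, named after its value was seen, at 0.26 (edgeR quasi-likelihood adjusted p = 0.0184) against 0.20 with all wells (adjusted p = 0.120). Myrf, the factor that drives myelin genes, rose by 0.59 on the log2 scale (edgeR quasi-likelihood adjusted p = 0.000332), from 50.5 ± 4.38 to 75.8 ± 15.8 CPM (SD, n = 6 each), and by 0.47 without replicate 1 (adjusted p = 0.00205). Nkx2-2 (-0.41) and Olig1 (-0.25), transcription factors of the oligodendrocyte lineage, fell, with -0.45 and -0.24 without replicate 1. Sox10 did not pass at 0.028 (edgeR quasi-likelihood adjusted p = 0.892), nor at -0.056 without that well (adjusted p = 0.726). Of 8 genes that bind, move or signal to Mbp transcripts, 0 rose, and Hnrnpk and Pcbp1, which encode RNA-binding proteins, fell (-0.23 each, and -0.29 and -0.27 without replicate 1, where they were again the 2 called).

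At 10 mM, 3 of 64 tested genes of these lists rose and 0 fell, where 0.391% of all genes tested were called higher and 0.266% lower. All 3 were mature oligodendrocyte genes: Tppp (0.53, edgeR quasi-likelihood adjusted p = 0.000361), Cmtm5 (0.42, adjusted p = 0.00522) and S1pr5, a receptor for sphingosine 1-phosphate (0.68, adjusted p = 0.0291). S1pr5 also rose at 30 mM (0.75, edgeR quasi-likelihood adjusted p = 0.0227), a call lost without replicate 1 (0.41, adjusted p = 0.184). Myrf (0.10, edgeR quasi-likelihood adjusted p = 0.784), Sox10 (0.084, adjusted p = 0.749) and Ugt8a (0.052, adjusted p = 0.889) did not pass at this dose. For the difference between doses, Olig1 (-0.37, edgeR quasi-likelihood adjusted p = 0.0256) was the only gene of the 5 lists called with all wells, and the difference for Myrf (0.48, adjusted p = 0.0597) did not pass. Without replicate 1 at 30 mM, 3 were called, all lower: Olig1 (-0.38, edgeR quasi-likelihood adjusted p = 0.0146), Cadm4 (-0.40, adjusted p = 0.0114) and Hnrnpk (-0.31, adjusted p = 0.0257), and Myrf (0.34, adjusted p = 0.159) again did not pass.

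**Figure D5:**
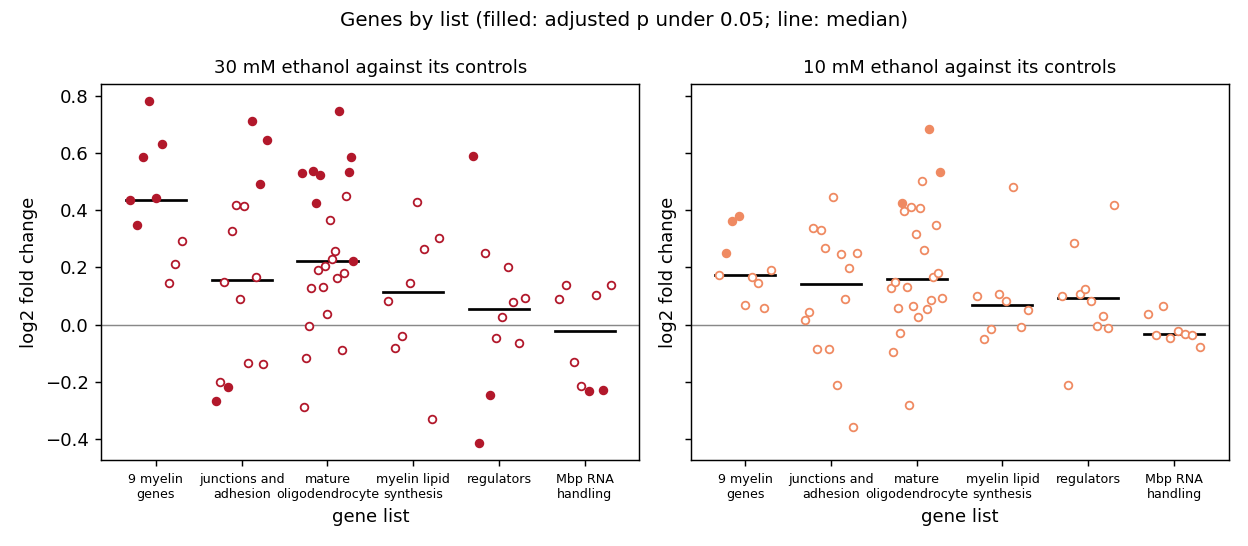
Log2 fold change of each tested gene (vertical axis) in 6 lists (horizontal axis) at 30 mM (left) and 10 mM (right); filled points passed at an adjusted p under 0.05 and lines are medians. Of the 9 myelin genes, 6 are filled at 30 mM and 3 at 10 mM, and the list medians are 0.43 and 0.17.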

How the data were processed

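The authors deposited raw counts of reads per gene, whole numbers for 55359 Ensembl mouse gene identifiers in 24 wells, and 1 column per well was matched to the labels by its name. Per the submitters' processing notes, cutadapt 1.18 and STAR were used with GRCm39. The counter, annotation release, use of strand and removal of PCR duplicates are not given in the sources used here. In GENCODE M21, 6 of the 9 members overlap no other gene; Pllp and Cnp overlap a gene on the opposite strand (median count 8 against 118.5, and 70.5 against 1282.5), and Mobp one on its own strand (0 against 947), so these 3 are uncertain to that extent. Symbols were matched for 94.1% of identifiers.

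Counts were tested with edgeR 4.0.16 (R 4.3.3): TMM, filterByExpr (minimum 10 counts), quasi-likelihood test, Benjamini-Hochberg over all genes tested, called at an adjusted p under 0.05. Each dose had a fit with the controls of its experiment (12 wells), the difference between doses as an interaction over 24 wells, and the control groups with each other. Log2 CPM used a prior count of 2, and intervals are the estimate ± 1.96 SE. Alternatives covered normalization, filter, threshold, DESeq2 1.42.0, limma 3.58.1 (voom), a joint fit, a block on the replicate number and each well left out. The test was tried on simulated counts. Depth was 1184609 to 1817028 counts per well. No pair of wells of a group agreed within counting noise (lowest chi-square per degree of freedom 1.07), so none was merged.

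The members and lists were chosen with earlier results of these data known. Named beside the members are, for each list and dose, up to 4 called genes with the smallest p, then Myrf, Sox10 and Ugt8a, and the 10 genes closest to the members' mean.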

Additional observations from a re-analysis of the deposited data

Results flagged for a closer look

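Replicate 1 of the 30 mM wells lay far above the other 5 wells of its group for 8 of the 9 members: Mbp (5265 CPM), Mobp (1536 CPM), Mal (519 CPM), Cldn11 (1373 CPM), Pllp (210.3 CPM), Mag (959 CPM), Mog (239.8 CPM) and Cnp (1595 CPM). In the same well Adamts4 (240.4 CPM), S1pr5 (49.0 CPM), Tppp (181 CPM), Tspan2 (244 CPM) and Ugt8a (217 CPM) were also far above the rest. Of 104 series of 6 wells examined with Dixon's criterion, 16 held such a well, 13 of them in this replicate. For independent series chance gives about 1 in 20, or 5.2. These series are of genes that varied together over the same wells, and some were named for a small p in fits with this replicate. The 13 are therefore not independent, and their number was not tested against chance. The other 3 were Pcbp1 in replicate 2 at 10 mM (248 CPM), Tspan2 in replicate 4 of the controls of experiment 2 (109 CPM), and the compact genes minus Mag, Mog and Cnp in replicate 3 at 10 mM (0.48).

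A different ethanol effect between the experiments was called for Mbp (0.36 on the log2 scale, 30 mM minus 10 mM), Mobp (0.46) and Olig1 (-0.37) by the edgeR interaction test. The calls of Mbp and Mobp were lost without replicate 1 at 30 mM. Dose and experiment cannot be told apart.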

How the results depend on the processing

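At 30 mM the same 6 members passed in all but 1 of the alternatives run, and 5 with DESeq2, without Cnp. At 10 mM Mal, Mag and Cnp passed in each alternative except the joint fit of all wells, which called 1 member (Mag). For the difference between doses, the members called were 0 at a threshold of 0.01 and with DESeq2, 1 without the low-count filter, 3 (with Mal) at 0.1 and with upper quartile scaling, and from 0 to 2 with 1 well left out. Between the control groups 1 was called at 0.01 and with DESeq2 (Mobp) and without the filter (Pllp), and 1 to 3 with a well left out. Over all genes, a threshold of 0.01 gave 641 calls at 30 mM, 28 at 10 mM and 173 for the difference, and 0.1 gave 150 at 10 mM and 854 for the difference. At 10 mM DESeq2 gave 39, the joint fit 21 and single wells left out 37 (without replicate 5 of the controls) to 95, and for the difference single wells gave 329 to 759 (the latter without replicate 1 at 30 mM). Taken as a ratio of summed CPM, the compact shift at 10 mM was -0.16, and it was -0.10 without replicate 3 at 10 mM.

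Changes of sign were all in values that did not pass. With upper quartile scaling and with library size alone, the log2 difference between doses was 0.062 and 0.014 for Mog, and that between control groups was -0.017 and -0.010 for Mbp, -0.049 and -0.043 for Cldn11, and -0.024 and -0.018 for Mog; without the filter it was 0.0017 for Opalin. With 1 well left out, the ranges at 30 mM were -0.018 to 0.39 (Pllp), -0.084 to 0.22 (Mog) and -0.020 to 0.35 (Opalin), each turning only without replicate 1. For the difference they were -0.24 to 0.17 (Pllp), -0.26 to 0.055 (Mog), -0.059 to 0.12 (Cnp) and -0.11 to 0.27 (Opalin), and between the control groups -0.0043 to 0.059 (Cldn11), -0.0086 to 0.089 (Mog) and -0.12 to 0.044 (Opalin). The cause was not tested. Replicate numbers did not pair the wells: same-numbered wells had correlations of deviations from -0.19 to 0.25 at 30 mM and from -0.045 to 0.044 at 10 mM. With a block on the replicate number, 6, 3 and 2 members were called at 30 mM, at 10 mM and for the difference, and 1208, 68 and 461 genes. Depth limits Opalin most, with 17 to 68 counts per well at 30 mM.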
